A study of Mus musculus with 33 samples.

Results

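Kidneys collected 7 weeks after delivery of interferon alpha were compared with kidneys collected 5 weeks after it in a mouse model of lupus nephritis. The members are the 5 arrays labelled week 7 and the 5 arrays labelled week 5, which make 10 of the 33 arrays of the series, and the untreated arrays took no part in the comparison. All 10 kidneys came from NZB X NZW F1 (BWF1) females that received an adenovirus expressing mouse interferon alpha (Adv-IFNα) intravenously, so the groups share strain, sex, vector and transgene and differ in the weeks elapsed. The sources give both 9 and 8 weeks as the age at injection. Week 7 mice were older than week 5 mice by the same interval, each group was collected at its own week, and so age, collection and time since treatment cannot be told apart. The design text of the series gives separate mice for each time point, with 1 array per kidney, and the labels name no kidneys that received an empty vector. The study describes more than 1 longitudinal experiment and the labels do not say which of them a mouse belonged to.

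BWF1 mice carry an inherited tendency to make antibodies against nuclear antigens, and interferon alpha shortens the time until immune complexes lodge in the glomeruli and protein leaks into the urine. The proximal tubule, which makes up most of the kidney cortex, takes filtered amino acids, sugars, phosphate and organic ions back from the urine and carries out gluconeogenesis, fatty acid oxidation and the breakdown of amino acids. A tubule under injury turns on a set of genes that it hardly uses in health, among them lipocalin 2 (Lcn2) and kidney injury molecule 1 (Havcr1), while interstitial fibroblasts lay down collagen.

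The arrays were normalized by RMA, the robust multi-array average, and values stand on a log2 scale, so a difference of 1 is a 2-fold change, and each gene is represented by its brightest probe set over all arrays. The kidney identity of the tissue showed in uromodulin (Umod) of the thick ascending limb at 11.10 in week 5 and 11.07 in week 7 kidneys and in cubilin (Cubn) of the proximal tubule at 11.37 and 10.67, while the podocyte gene Nphs1 lay at 4.62 and 4.16 in whole kidney. These were bulk kidneys, in which fewer cells of a type and less RNA per cell cannot be told apart. The 3′ to 5′ ratio of the beta-actin control probe sets, a sign of RNA quality, was 1.88 ± 0.085 at week 5 and 1.98 ± 0.12 at week 7 (SD, n = 5, two-sided exact permutation p = 0.159). Pairwise correlations among the 10 arrays ran from 0.977 to 0.992 over all probe sets.

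Week 7 replicate 4 stood apart from the other week 7 kidneys. Its mean correlation was 0.983 with its own group and 0.991 with the week 5 arrays, whereas the other 4 week 7 arrays correlated at 0.985 to 0.987 with their own group. The array is kept in every value unless stated.

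The step from week 5 to week 7 held most of the probe sets called between neighbouring weeks. With limma on the arrays of each pair of weeks, 470 of 45037 probe sets (1.04%) passed a Benjamini-Hochberg adjusted p below 0.05 with a change above 2-fold between weeks 5 and 7, 247 of them higher and 223 lower at week 7. The same test called 14 probe sets (0.0311%) from week 1 to 2, 6 (0.0133%) from week 2 to 3 and 1 (0.00222%) from week 3 to 5. From week 7 to 9 limma called 0 probe sets (0%), and 6 in a model over all 33 arrays. At an unadjusted limma p below 0.05 the steps lay closer, with 8307 probe sets from week 5 to 7 and 4111 from week 7 to 9. The counts were 4930 from week 1 to 2, 3468 from week 2 to 3 and 2931 from week 3 to 5.

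**Figure D1:**
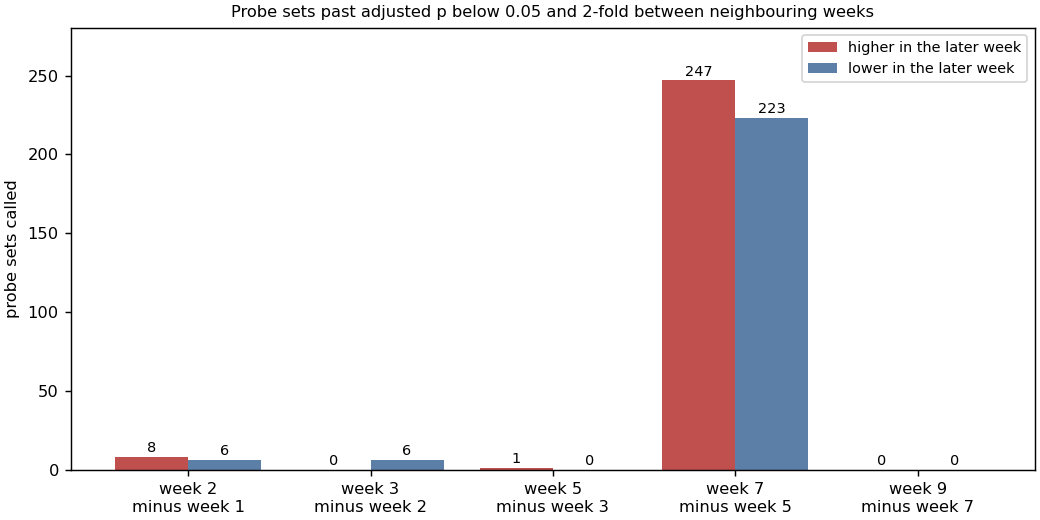
Probe sets called by limma (adjusted p below 0.05 and above 2-fold) for each pair of neighbouring collection weeks, split into those higher and those lower in the later week. The week 7 minus week 5 pair holds 247 and 223 probe sets, and no other pair holds more than 14 in all.

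Per gene, 272 of 17097 genes (1.59%) were called, 129 higher and 143 lower at week 7. At the adjusted p alone, without a fold threshold, 419 genes rose (2.45%) and 411 fell (2.40%), and these shares are the background for every gene list below, in which "rose" and "fell" mean that limma's adjusted p over all probe sets was below 0.05. The 5 week 7 values lay wholly above or below the 5 week 5 values in 880 genes (5.15%), and in 124 of the called genes, 77 higher and 47 lower. The median change over all genes was 0.04. In 254 of the 272 called genes, week 7 replicate 4 was the week 7 array nearest to the week 5 mean. All 272 called genes also passed without week 7 replicate 4, when 565 genes were called in all, whereas leaving out any other array left 57 to 236. Of the 272, 41 higher and 17 lower genes passed whichever array was left out. Counts of members past the test rested on single arrays in both directions. Without week 7 replicate 4, 1137 genes rose (6.65%) and 1079 fell (6.31%). Without week 5 replicate 2, 3, 4 or 5 or week 7 replicate 1, 2 or 5, the 7 arrays that lowered the counts most, 69 to 145 rose and 47 to 96 fell, and the lowest of both, 0.404% and 0.275% of genes, came without week 5 replicate 5. Each list is therefore given with its range over the 10 ways of leaving out 1 array. Of the 98 named genes past the test, 28 passed whichever array was left out and 70 lost the threshold without at least 1. With the beta-actin 3′ to 5′ ratio as a covariate 170 genes were called, 133 of them among the 272.

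**Figure D2:**
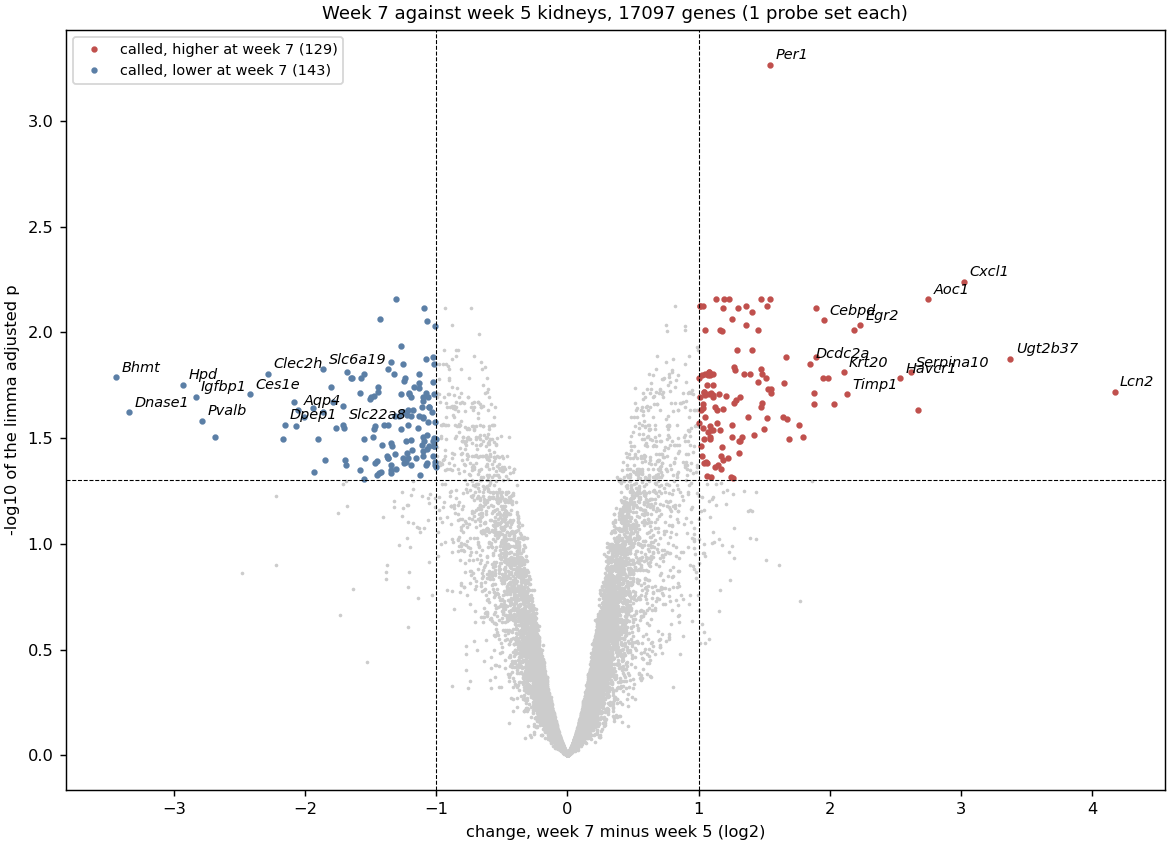
Change from week 5 to week 7 (log2, horizontal) against the −log10 of limma's adjusted p (vertical) for 17097 genes, with 129 called higher genes in red, 143 called lower genes in blue and dashed lines at the thresholds. Lcn2 and Bhmt lie furthest out to the right and left, and Per1 has the smallest adjusted p.

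Tubular injury genes had the highest median change of the 51 gene lists. Of 17 measured markers, 10 rose and 0 fell, the median change was 1.10, and with 1 array left out the rises ran from 4 without week 5 replicate 5 to 15 without week 7 replicate 4. The median itself ran from 0.92 to 1.45. Lcn2, whose product binds bacterial iron carriers and is released by injured tubules, rose 18.0-fold. Havcr1, a receptor by which injured proximal tubule cells engulf dead neighbours, rose 5.81-fold, and the epithelial keratin Krt20 rose 4.30-fold.

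Lcn2 lay at 4.46, 3.32, 4.0, 4.21 and 4.66 in week 5 replicates 1 to 5 and at 9.55, 9.93, 8.53, 4.30 and 9.21 in week 7 replicates 1 to 5. Replicate 4 of week 7 lay within the week 5 range and the other 4 lay more than 3 log2 units above it, so the groups overlap in that array alone. The change was 4.17 on the log2 scale (SE 0.80, adjusted p = 0.0191), and 5.17 without that array. Havcr1 ran 6.81, 6.93, 7.33, 7.48 and 7.23 at week 5 and 10.06, 10.59, 9.45, 7.54 and 10.83 at week 7, in replicate order as for all values here. Every week 7 kidney lay above every week 5 kidney, with replicate 4 only just so, and the change was 2.54 on the log2 scale (SE 0.46, adjusted p = 0.0164). Krt20 was measured at 3.74, 3.46, 2.81, 3.79 and 3.50 at week 5 and 6.93, 5.84, 5.21, 4.19 and 5.65 at week 7, again with no overlap and with replicate 4 the lowest of its group (change 2.106, adjusted p = 0.0154). Ccl28, an epithelial chemokine that draws IgA plasma cells, was placed in the same list and rose by 1.95 on the log2 scale (SE 0.35, adjusted p = 0.0164), with replicate 4 at 7.07 and the other week 7 arrays between 8.85 and 9.16.

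Lcn2 had an adjusted p of 0.0563 without week 7 replicate 5 and Havcr1 of 0.0524 without week 5 replicate 5, the highest of the 10 limma fits with 1 array left out, whereas Krt20 passed in all 10. Lcn2 lost the threshold in 5 of these fits and Havcr1 in 1.

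**Figure D3:**
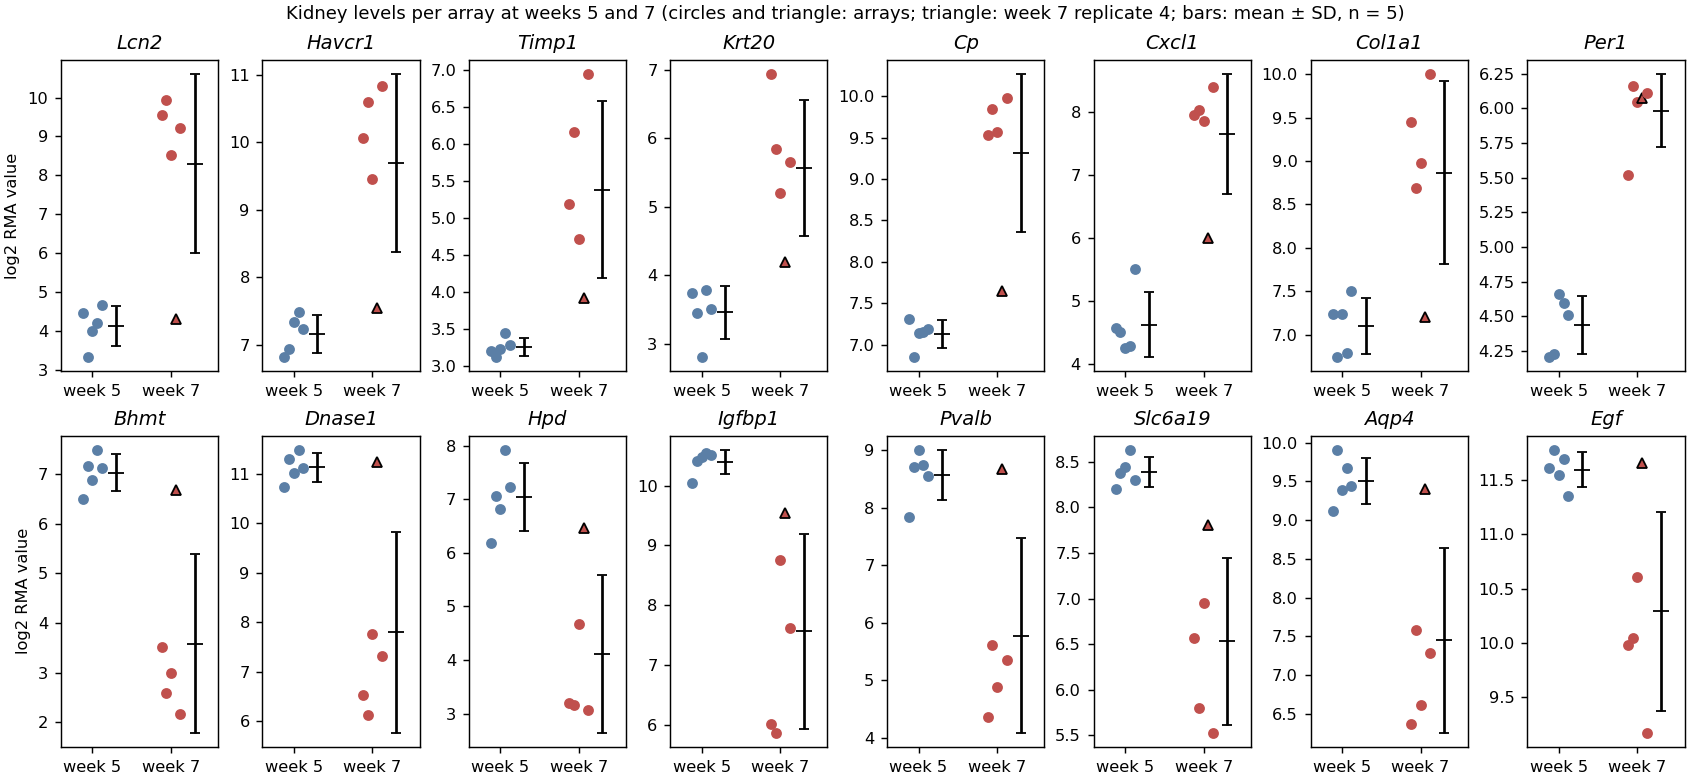
Log2 RMA values of 16 genes in each of the 10 kidneys, with week 7 replicate 4 drawn as a triangle and black bars giving the mean ± SD (n = 5). In the upper row week 7 lies higher and in the lower row lower, and the triangle sits at or near the week 5 values in most panels but with the other week 7 kidneys for Per1.

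The largest rises among genes whose groups did not overlap came from several functional classes. Ugt2b37, a glucuronosyltransferase, ran 2.84, 3.28, 2.98, 3.17 and 2.85 at week 5 and 7.11, 7.10, 5.83, 3.82 and 8.15 at week 7. Replicates 1, 2, 3 and 5 of week 7 lay above 5 and replicate 4 below 4, and the fitted rise was 3.38 on the log2 scale (SE 0.57, adjusted p = 0.0133). Cxcl1, a chemokine for neutrophils, stood at 4.57, 4.51, 4.25, 4.28 and 5.51 at week 5 and at 7.95, 8.03, 7.86, 6.0 and 8.40 at week 7. Week 5 replicate 5 was the highest of its group and week 7 replicate 4 the lowest of its own, yet the groups did not meet, and the rise was 8.13-fold (log2 change 3.02, SE 0.37, adjusted p = 0.00574). Aoc1, the enzyme that breaks down histamine and putrescine, rose by 2.75 (adjusted p = 0.00696), and Serpina10, which encodes the protein Z-dependent inhibitor of factor Xa, by 2.62 (adjusted p = 0.0154).

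Further genes of that set were the zinc finger factor Egr2 (2.23), ceruloplasmin (Cp, 2.18), the aggrecanase Adamts4 (1.99), the BMP antagonist Grem1 (1.90), Ankrd6 (1.89), the doublecortin family gene Dcdc2a (1.85) and endothelin 1 (Edn1, 1.67), a constrictor peptide of blood vessels. These log2 changes had adjusted p-values between 0.00763 and 0.0257. In each of these genes all 5 week 7 kidneys lay above all 5 week 5 kidneys, which was a condition for entering the set. Ceruloplasmin, the copper carrier of plasma, ran 7.31, 6.85, 7.14, 7.16 and 7.19 at week 5 and 9.53, 9.85, 9.56, 7.65 and 9.98 at week 7. Its lowest week 7 kidney, replicate 4, lay well under the others and a little above the highest week 5 kidney.

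Bhmt, Dnase1, Hpd and Igfbp1 had the largest falls of all genes. Bhmt, the betaine-homocysteine methyltransferase, lay at 6.49, 7.16, 6.87, 7.49 and 7.12 at week 5 and at 3.51, 2.58, 3.0, 6.67 and 2.16 at week 7. It dropped below 4 in replicates 1, 2, 3 and 5, while replicate 4 stayed inside the week 5 range, and the fall was 10.9-fold (log2 change -3.44, SE 0.62, adjusted p = 0.0163). Dnase1, the secreted nuclease that digests free DNA, was 10.73, 11.30, 11.03, 11.49 and 11.13 at week 5 and 6.53, 6.11, 7.76, 11.24 and 7.33 at week 7. Here too replicate 4 kept a week 5 level and the others lay below 8, with a fitted change of -3.34 on the log2 scale (SE 0.70, adjusted p = 0.0238). Hpd, which acts in tyrosine breakdown, ran 6.19, 7.05, 6.82, 7.92 and 7.23 at week 5 and 3.20, 3.17, 4.68, 6.46 and 3.06 at week 7, and fell by 2.93 (adjusted p = 0.0176) with replicate 4 overlapping. The highest adjusted p of the limma fits with 1 array left out was 0.0544 for Bhmt and 0.0566 for Hpd, both without week 5 replicate 5, and 0.0677 for Dnase1, without week 7 replicate 5.

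Igfbp1, a secreted carrier of insulin-like growth factors, fell with no overlap, from 10.05, 10.41, 10.48, 10.54 and 10.51 at week 5 to 6.02, 5.87, 8.76, 9.54 and 7.63 at week 7. Week 7 spread over more than 3 units, with replicates 3 and 4 the highest, and the change was -2.83 on the log2 scale (SE 0.56, adjusted p = 0.0202). The carboxylesterase Ces1e (-2.42), the lectin gene Clec2h (-2.28), the brush border dipeptidase Dpep1 (-2.16), the neutral amino acid transporter Slc6a19 (-1.86) and the sulfate transporter Slc13a4 (-1.68) were the next largest falls without overlap, with adjusted p-values from 0.0149 to 0.0273. The other genes of this set were the carboxylesterases Ces1d, Ces2g and Ces1f, the elastase Cela1, the glutathione transferase Gsta2, the steroid reductase Akr1d1, the inositol oxygenase Miox, the lysophosphatidic acid receptor Lpar3 and Ell3, with changes between -1.55 and -1.34 and adjusted p-values up to 0.0494.

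The stretches upstream of 6 of these genes are shown because they carry the searched motifs among the largest rises and falls, so that the letters behind the counts can be read. Each is given 5′ to 3′ along the gene from the RefSeq promoter table on GRCm38.p6, with the match in capitals. Egr2 (chr10:67535260-67535346 on the plus strand) holds the E2F motif TTCCCGC, Cp (chr3:19956817-19956905 on the plus strand) and Igfbp1 (chr11:7197688-7197776 on the plus strand) the HNF1 motif GTTAATNAT on the reverse strand, and Dcdc2a (chr13:25055819-25055907 on the plus strand), Clec2h (chr6:128662193-128662281 on the plus strand) and Slc13a4 (chr6:35308307-35308376 on the minus strand) the core of the interferon-stimulated response element GAAANNGAA, reversed in Clec2h.
Egr2: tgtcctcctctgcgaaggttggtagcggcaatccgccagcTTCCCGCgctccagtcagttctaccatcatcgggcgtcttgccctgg
Cp: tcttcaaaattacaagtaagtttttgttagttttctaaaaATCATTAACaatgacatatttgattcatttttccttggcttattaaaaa
Dcdc2a: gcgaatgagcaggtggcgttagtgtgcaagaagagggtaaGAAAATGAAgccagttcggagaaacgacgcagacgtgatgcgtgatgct
Igfbp1: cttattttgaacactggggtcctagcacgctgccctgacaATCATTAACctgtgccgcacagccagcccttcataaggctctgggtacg
Clec2h: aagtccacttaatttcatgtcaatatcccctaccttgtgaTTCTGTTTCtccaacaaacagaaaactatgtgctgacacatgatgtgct
Slc13a4: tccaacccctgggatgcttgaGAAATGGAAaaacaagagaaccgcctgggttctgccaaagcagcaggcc

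The shares of promoters with each motif are a description with no test. Promoter windows of 250 bases were found for 105 called higher and 112 called lower genes, and both strands were searched. The interferon-stimulated response element core GAAANNGAA occurred in 13.3% of the higher genes, 6.25% of the lower genes, 7.52% of the 13514 genes on the arrays with a promoter and 8.18% of all 27025 promoters. The HNF1 motif GTTAATNAT, bound by a factor of tubule differentiation, occurred in 1.9% of the higher, 3.57% of the lower, 0.7% of the array genes and 0.87% of all promoters, which are 2 and 4 called genes. The STAT palindrome TTCCNGGAA was in 0.95%, 0.89%, 1.21% and 1.09%, and the HNF4 motif CAAAGTCCA in 0% (0 of 105), 1.79%, 0.53% and 0.45%, in the same order. The E2F motif TTCCCGC was in 6.67% of the higher and 4.46% of the lower genes beside 6.5% of the array genes and 4.38% of all promoters.

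With all arrays, extracellular matrix held the most rises of the 51 lists by count, and it was also the longest list. The shorter tubular injury list held 10 rises among 17 measured members. Of 36 measured matrix and remodelling genes 13 rose and 1 fell, the median change was 0.56, and with 1 array left out the rises ran from 1 without week 5 replicates 2 or 5 to 20 without week 7 replicate 4. Timp1, an inhibitor of matrix metalloproteinases, ran 3.19, 3.11, 3.22, 3.45 and 3.28 at week 5 and 5.18, 6.16, 4.72, 3.91 and 6.94 at week 7. Its groups did not overlap and week 7 replicates 2 and 5 were the highest, with a change of 2.13 on the log2 scale (SE 0.41, adjusted p = 0.0196). Col1a1, the major fibrillar collagen of scars, lay at 7.24, 6.74, 7.24, 6.78 and 7.50 at week 5 and 9.46, 8.69, 8.97, 7.20 and 10.001 at week 7, where replicate 4 alone lay inside the week 5 range (change 1.77, adjusted p = 0.0273). Col3a1, its companion in loose fibres, rose by 1.52 (adjusted p = 0.0255), and tenascin C (Tnc), a matrix protein of wounds, by 1.11 (adjusted p = 0.0202) with no overlap. Of the 10 fits with 1 array left out, Timp1 lost the threshold in 4, Col1a1 in 8, Col3a1 in 7 and Tnc in 5.

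Other genes that mark fibrosis gave smaller values or missed the threshold. The Col1a2 probe set was dim, at 1.30 and 1.73 (change 0.43, adjusted p = 0.182). Smooth muscle actin (Acta2) averaged 8.48 at week 5 and 8.96 at week 7 (adjusted p = 0.195), and fibrillin 2 (Fbn2) 2.50 and 2.57 (adjusted p = 0.849). In the list of myofibroblast and TGF-beta genes 3 of 24 measured members rose and 1 fell, and the rises ran from 1 without week 7 replicate 5 to 11 without week 7 replicate 4. The risers included Ccn2, the connective tissue growth factor (0.75, adjusted p = 0.00918, no overlap), and the receptor Tgfbr1 (0.63, adjusted p = 0.0402), and the faller was Bmp7 (-0.74, adjusted p = 0.0472), a tubular factor that opposes TGF-beta. The dimmer probe sets of Bmp7 differed by -0.29 and 0.13 (adjusted p = 0.283 and 0.731), and those of Tgfbr1 by 0.33 and 0.44 (adjusted p = 0.376 and 0.294). Ccn1, a relative of Ccn2, differed by 1.04 (adjusted p = 0.0694).

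**Figure D4:**
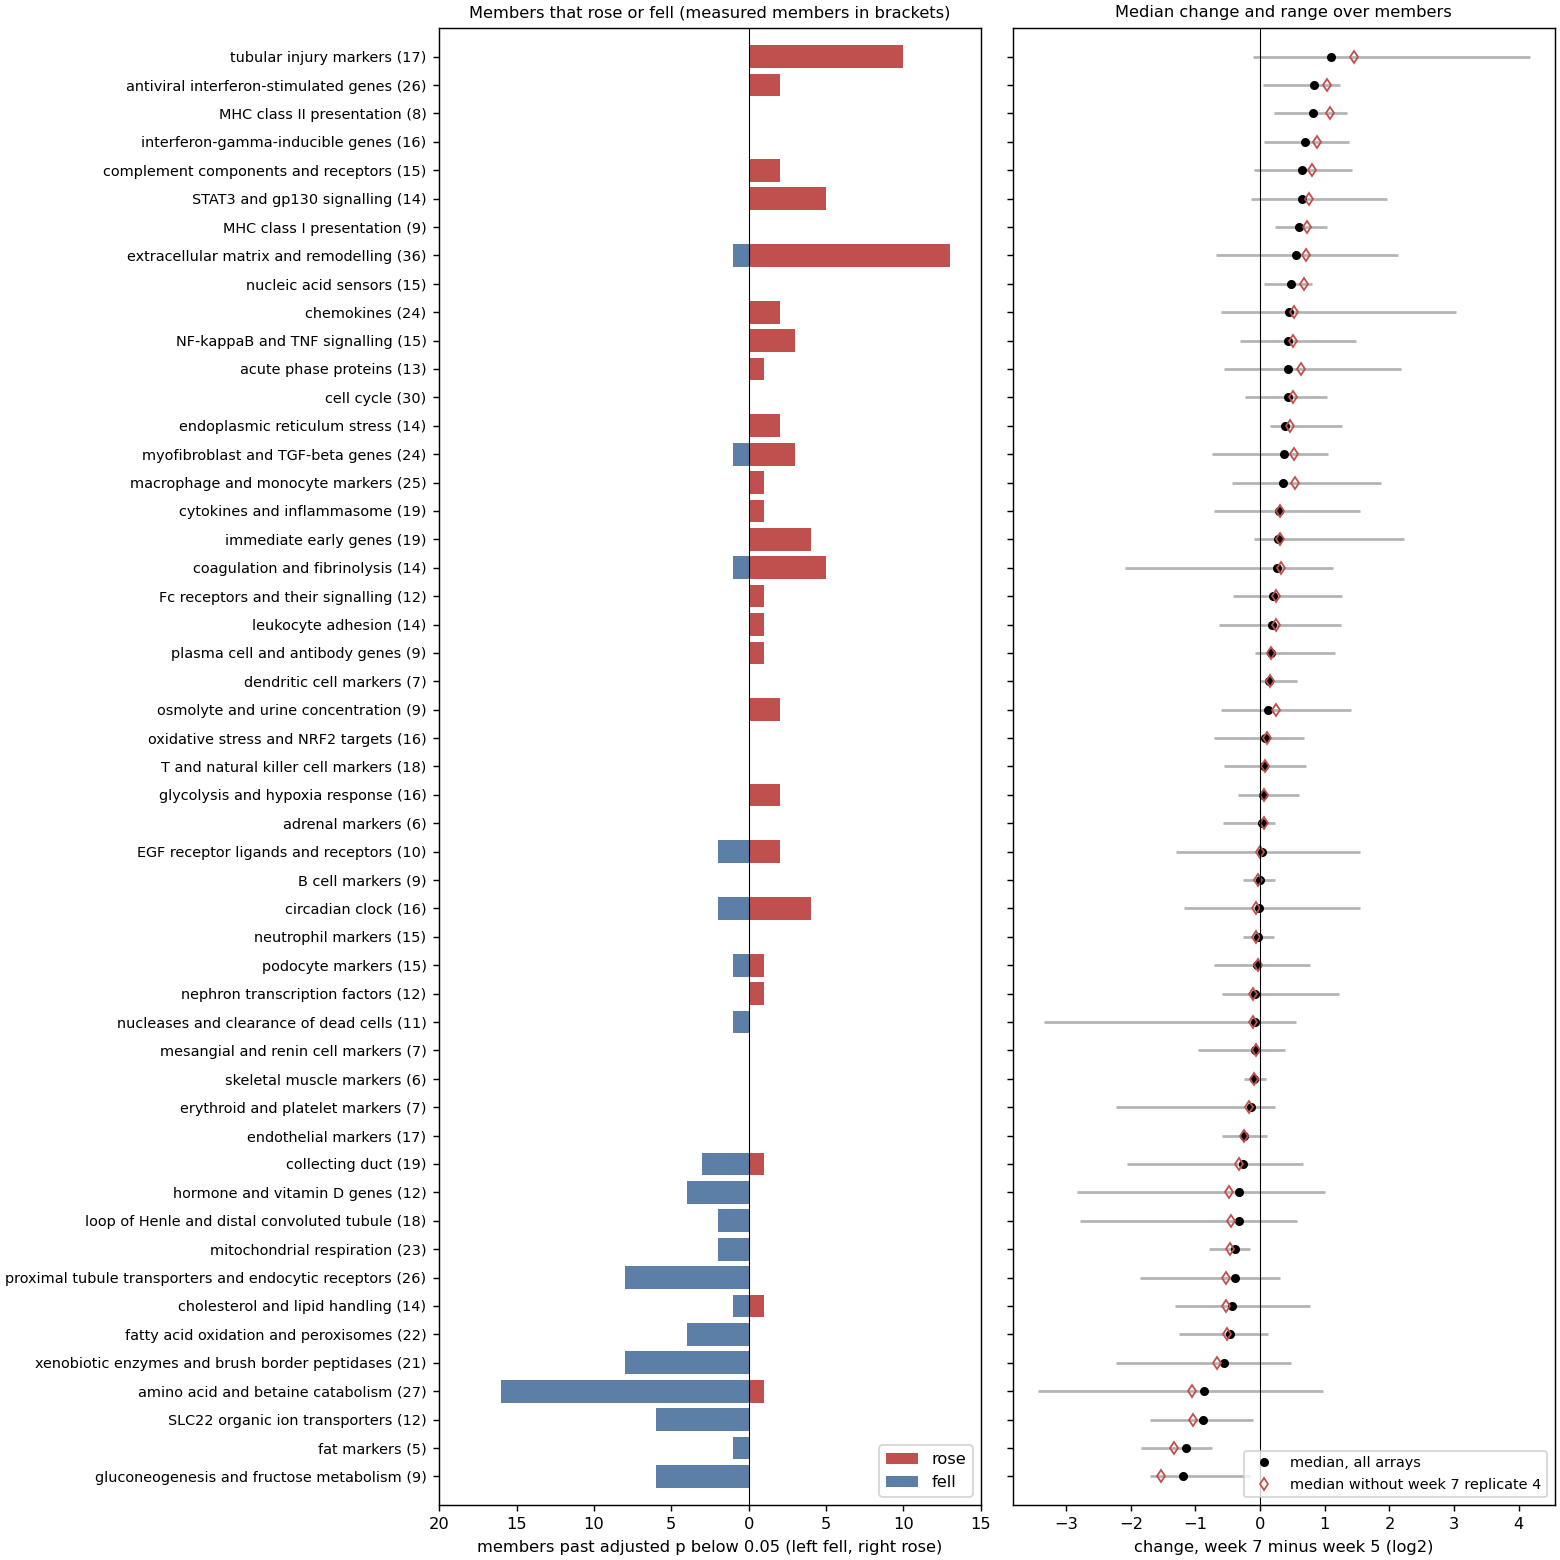
For each of 51 gene lists, with the measured members in brackets, the number of members that rose (red, right) or fell (blue, left) at an adjusted p below 0.05, and beside it the median change (dot), the range over members (line) and the median without week 7 replicate 4 (diamond), in log2 units. By count, in lists of unequal length, matrix and injury hold the most rises, with 13 and 10, and amino acid and betaine catabolism the most falls, with 16.

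Genes of signalling through gp130 receptors and STAT3, the path of interleukin 6 and oncostatin M, were among those that rose. In that list 5 of 14 measured members rose and 0 fell, the median change was 0.64, and the rises ran from 1 without week 5 replicates 2 or 5 or week 7 replicates 1 or 5 to 8 without week 7 replicate 4. Osmr, the oncostatin M receptor, ran 7.34, 7.18, 7.65, 7.81 and 7.43 at week 5 and 9.41, 9.42, 8.65, 7.82 and 9.75 at week 7. Replicate 4 lay only just above week 5 and the groups did not overlap, with a change of 1.53 on the log2 scale (SE 0.29, adjusted p = 0.0185). Cebpd, a transcription factor of the acute phase, rose by 1.96 (adjusted p = 0.00874), from 4.05, 4.47, 4.89, 4.26 and 4.98 at week 5 to 6.62, 6.96, 6.71, 5.21 and 6.93 at week 7, with replicate 4 lowest but still above week 5. The feedback gene Socs2 rose by 1.02 (adjusted p = 0.0233).

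Among NF-kappaB and TNF genes 3 of 15 measured members rose and 0 fell, with a range of 1 without any 1 of the 7 arrays named above to 6 without week 7 replicate 4. The risers were Tnfrsf12a, the receptor for TWEAK (1.48, adjusted p = 0.0226), Nfkbiz, a nuclear partner of NF-kappaB (1.48, adjusted p = 0.0149), and the TNF receptor Tnfrsf1a (0.71, adjusted p = 0.0326). In the list of chemokines 2 of 24 measured members rose and 0 fell, the pair being Cxcl1 and Ccl28, and 10 rose without week 7 replicate 4 and 2 without any 1 of the other arrays. Among cytokines and inflammasome genes 1 of 19 measured members rose and 0 fell, the riser being the alarmin Il33, which went from 5.42, 5.11, 5.33, 4.97 and 4.78 at week 5 to 6.83, 7.18, 6.75, 5.32 and 7.28 at week 7. Replicate 4 lay within the week 5 range and the other week 7 arrays above it (change 1.55, adjusted p = 0.0185), and the rises of that list ran from 0 without week 5 replicates 4 or 5 or week 7 replicates 1 or 5 to 6 without week 7 replicate 4. The inflammatory caspase Casp4 differed by 0.94 (adjusted p = 0.127).

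Immediate early genes, which cells switch on within minutes of a stimulus, counted 4 rises and 0 falls among 19 members, 4 also without any 1 array other than week 7 replicate 4 and 7 without that one. Egr2 ran 5.57, 5.11, 6.07, 5.62 and 5.86 at week 5 and 8.27, 8.13, 7.47, 6.56 and 8.95 at week 7, with no overlap (adjusted p = 0.00923). Klf6 and Ier3 rose by 1.30 and 1.26 (adjusted p = 0.00763 and 0.00864), also without overlap. Of the endoplasmic reticulum stress genes 2 of 14 measured members rose and 0 fell, namely Atf3 (1.27, adjusted p = 0.0145) and Atf4 (0.56, adjusted p = 0.0391), with 4 without week 7 replicate 4 and 1 without any 1 of the other arrays. Among oxidative stress and NRF2 targets 0 of 16 measured members rose and 0 fell, and the bright members Gpx3 and Sod1 differed by -0.12 and -0.23 (adjusted p = 0.613 and 0.271). Without week 7 replicate 4, 2 of these targets rose and 2 fell.

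In the clock gene Per1 week 7 replicate 4 lay with its own group. Per1, a repressor in the circadian loop, lay at 4.21, 4.23, 4.66, 4.59 and 4.51 at week 5 and at 5.52, 6.16, 6.05, 6.08 and 6.11 at week 7. All week 7 kidneys, replicate 4 included, lay above all week 5 kidneys and replicate 1 was the lowest of the 5. The change was 1.54 on the log2 scale (SE 0.14, adjusted p = 0.000541), the smallest adjusted p of all genes. Cry1 rose by 1.06 (adjusted p = 0.0177) without overlap and Per2 by 0.96 (adjusted p = 0.0343) with overlap. The dimmer probe set of Per2 differed by 0.06 (adjusted p = 0.897). In the whole list 4 of 16 measured members rose and 2 fell. The rises ran from 2 without week 5 replicate 5 to 4 without week 7 replicate 4, and the falls from 0 without any 1 of the 7 arrays named above to 4 without week 7 replicate 4. Clock transcripts cycle over the day and the sources used here give no hour of collection, so week and hour cannot be told apart.

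Growth factor genes of the EGF family split in direction, with 2 rises and 2 falls among 10 members. The rises ran from 1 without any 1 of 7 arrays to 3 without week 7 replicate 4 and the falls from 0 without any 1 of the 7 arrays named above to 2 without week 7 replicate 4. Nrg1, neuregulin 1, rose by 1.54 (adjusted p = 0.00696) and Hbegf, a ligand made by injured epithelium, by 1.0 (adjusted p = 0.0276), both without overlap. The dimmer probe set of Hbegf differed by 0.53 (adjusted p = 0.205). Egf itself, which the distal tubule makes in bulk, ran 11.62, 11.78, 11.55, 11.69 and 11.35 at week 5 and 9.98, 10.04, 10.61, 11.65 and 9.17 at week 7. Replicate 4 matched week 5 and the other 4 lay below it, with a change of -1.31 on the log2 scale (SE 0.33, adjusted p = 0.0444).

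Interferon-stimulated genes were higher on average but few passed the test. Whether they answered the transgene or interferon of the mice themselves was not tested. In the antiviral list 2 of 26 measured members rose and 0 fell, the median change was 0.83, and the difference was above 0 in all 26 members. The risers were Parp14 (1.07, adjusted p = 0.0414) and Trim30a (0.96, adjusted p = 0.0461), and the rises ran from 0 without any 1 of the 7 arrays named above to 14 without week 7 replicate 4. Their dimmer probe sets differed by 0.56 for Parp14 and 1.15 for Trim30a (adjusted p = 0.226 and 0.0947). The mean level of the list was 7.34, 6.59, 6.78, 7.25 and 7.16 in the week 5 kidneys and 8.65, 7.94, 7.35, 7.07 and 7.91 in the week 7 kidneys. Replicate 1 of week 7 was the highest, replicate 3 lay just above the highest week 5 kidney and replicate 4 within the week 5 range.

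Neighbouring interferon lists gave no member past the test with all arrays. Among interferon-gamma-inducible genes 0 of 16 measured members rose and 0 fell (median change 0.70), and without week 7 replicate 4, 5 rose and 0 fell. The same counts were 0 of 15 for nucleic acid sensors (median change 0.48), 0 of 9 for MHC class I presentation (median change 0.60) and 0 of 8 for MHC class II presentation (median change 0.81), with no falls. Without week 7 replicate 4 the rises in these 3 lists came to 6, 5 and 6. Without week 5 replicate 1, 3 MHC class II genes rose, and otherwise at most 1 gene of these lists rose with 1 array left out. By gene, Sting1, the adaptor for cytosolic DNA, averaged 3.79 and 4.58 at weeks 5 and 7 (adjusted p = 0.0630) and Ifih1, a sensor of double-stranded RNA, 7.59 and 8.20 (adjusted p = 0.158). Ddx60, a helicase of that path, differed by 0.55 (adjusted p = 0.412), the guanylate binding protein Gbp7 by 0.82 (adjusted p = 0.0664) and Cd74, the invariant chain, by 1.34 (adjusted p = 0.0560). Tlr3, H2-D1, Tapbp, H2-Aa and Gbp10, the other named members, had changes of 0.59, 0.56, 0.60, 0.68 and 0.06 with adjusted p-values from 0.0792 to 0.959.

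Complement and Fc receptor genes held 3 risers. Of 15 complement genes 2 rose and 0 fell (median change 0.65), the risers being the protease Cfi (1.42, adjusted p = 0.0306) and the receptor C3ar1 (1.11, adjusted p = 0.0290, no overlap), and the rises ran from 0 without any 1 of 6 arrays to 7 without week 7 replicate 4. The dimmer probe sets of C3ar1 differed by 0.39 and 0.02 (adjusted p = 0.5535 and 0.960). Among Fc receptors and their signalling genes 1 of 12 measured members rose and 0 fell, with a range of 0 without week 5 replicates 2, 3 or 5 to 2 without week 7 replicate 4. Fcgr3, an activating receptor for IgG, ran 5.06, 4.83, 4.63, 5.09 and 4.65 at week 5 and 5.69, 5.73, 5.86, 5.47 and 6.77 at week 7, with no overlap (change 1.05, adjusted p = 0.0198). The inhibitory receptor Fcgr2b differed by -0.32 (adjusted p = 0.407), other probe sets of it lay between -0.01 and 0.23, and the common chain Fcer1g differed by 0.23 (adjusted p = 0.764).

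Few markers of leukocytes passed the test, beside shares of 2.45% risen and 2.40% fallen over all genes. At those shares lists of this length would hold few or none. Among macrophage and monocyte markers 1 of 25 measured members rose and 0 fell (median change 0.35), with a range of rises from 0 without any 1 of the 7 arrays named above to 8 without week 7 replicate 4, where 1 fell as well. The riser was Lgals3, a lectin that macrophages and injured epithelium make (1.38, adjusted p = 0.0252), and Plac8 differed by 0.99 (adjusted p = 0.0574). The difference was above 0 in 22 of the 25 macrophage and monocyte markers. Their mean level was 5.62, 4.77, 5.08, 5.41 and 5.08 at week 5 and 6.14, 5.62, 5.51, 5.25 and 5.92 at week 7, and the groups overlapped. No member passed in either direction among 7 dendritic cell, 15 neutrophil, 18 T and natural killer cell and 9 B cell markers, with medians of 0.14, -0.04, 0.06 and -0.01. The difference was above 0 in 6, 5, 11 and 4 members of these lists, in the same order. Their mean levels were 4.30, 2.66, 3.78 and 2.91 at week 5 and 4.47, 2.60, 3.82 and 2.87 at week 7. Array medians over all probe sets were 3.98 to 4.09. The neutrophil and B cell lists were therefore dim on average, where a change can go unseen.

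The neutrophil calprotectin genes S100a8 and S100a9 differed by -0.21 and -0.27 (adjusted p = 0.624 and 0.517), Mmp9 and Trem1 by -0.14 and -0.27 (adjusted p = 0.659 and 0.438), beside the rise of Cxcl1 given above. Cd8a and Prf1 of cytotoxic cells differed by -0.04 and 0.03, Cd79a and Pax5 of B cells by 0.01 and 0.02, and Cd83 and Zbtb46 of dendritic cells by 0.57 and -0.0025, with adjusted p-values of 0.430 or more. For plasma cell and antibody genes 1 of 9 measured members rose and 0 fell, the riser being Xbp1 (1.01, adjusted p = 0.00750), a factor of secretory cells of many kinds. Jchain, the joining chain of IgA and IgM, lay at 6.25, 5.06, 5.12, 4.77 and 5.64 at week 5 and at 7.63, 4.81, 7.72, 5.67 and 6.78 at week 7, and the groups overlapped (adjusted p = 0.207), and Irf4 differed by 0.94 (adjusted p = 0.0681). In the list of leukocyte adhesion 1 of 14 measured members rose and 0 fell, the riser being the hyaluronan receptor Cd44 (1.25, adjusted p = 0.0273), while Cd47 and F11r differed by 0.38 and 0.35 (adjusted p = 0.169 and 0.142). The adhesion rises ran from 0 without any 1 of the 7 arrays named above to 4 without week 7 replicate 4, where 2 fell as well. For Cd44 the 3 dimmer probe sets differed by 1.42, -0.08 and -0.01 (adjusted p = 0.111, 0.737 and 0.986).

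Of 14 genes of blood clotting and of clot breakdown 5 rose and 1 fell, and the rises ran from 0 without week 5 replicate 5 to 6 without week 7 replicate 4. The risers included the annexin Anxa2, which assembles plasmin at the cell surface (1.13, adjusted p = 0.0431), and the thrombin receptor F2r (1.08, adjusted p = 0.0160). The faller was coagulation factor V (F5), at 5.92, 6.34, 6.78, 6.36 and 6.46 at week 5 and 3.26, 3.33, 4.33, 6.16 and 4.36 at week 7. Replicate 4 overlapped and the change was -2.08 on the log2 scale (SE 0.42, adjusted p = 0.0214). In the acute phase list 1 of 13 measured members rose and 0 fell, the riser being Cp, and 5 rose without week 7 replicate 4. The fibrinogen chains Fga and Fgg differed by 1.39 and 1.27 (adjusted p = 0.0694 and 0.117), and the serum amyloid genes Saa1 and Saa3 by 0.92 and 0.23 (adjusted p = 0.0582 and 0.702).

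With all arrays, amino acid and betaine catabolism held the most falls of the 51 lists by count. The shorter list of gluconeogenesis and fructose metabolism held 6 falls among 9 measured members, with a median change of -1.19. The catabolism list had 16 falls and 1 rise among 27 measured members, and the median change was -0.87. With 1 array left out its falls ran from 0 without week 5 replicate 5 to 23 without week 7 replicate 4. The median change of the list stayed between -1.05 and -0.77 in these fits. Ass1, which makes argininosuccinate on the way to arginine, ran 9.39, 9.06, 9.48, 9.26 and 9.30 at week 5 and 7.02, 6.95, 8.01, 9.14 and 6.84 at week 7, overlapping in replicate 4 alone (change -1.71, adjusted p = 0.0223, and 0.0637 without week 7 replicate 5). The mean level of the list was 8.17, 8.31, 8.42, 8.50 and 8.29 in the 5 week 5 kidneys and 7.03, 7.11, 7.45, 8.30 and 6.92 in the week 7 kidneys. Replicates 1, 2, 3 and 5 of week 7 lay below the whole week 5 range, and replicate 4 within it.

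Some transporters of the proximal tubule fell. Of the transporters and endocytic receptors 8 of 26 fell and 0 rose (median change -0.39), and the falls ran from 2 without any 1 of the 7 arrays named above to 13 without week 7 replicate 4. Slc6a19, which takes up neutral amino acids at the brush border, ran 8.20, 8.38, 8.45, 8.63 and 8.30 at week 5 and 6.56, 5.80, 6.95, 7.80 and 5.53 at week 7, with no overlap (change -1.86, SE 0.33, adjusted p = 0.0149). Slc13a3, for dicarboxylates, and Slc7a8, for amino acids, fell by 1.41 and 1.37 (adjusted p = 0.0342 and 0.0391). Among the SLC22 organic ion transporters, which secrete drugs and toxins, 6 of 12 fell and 0 rose (median change -0.88), and the falls ran from 1 without any 1 of the 7 arrays named above to 8 without week 7 replicate 4. Slc22a8 lay at 8.93, 8.77, 9.14, 9.28 and 9.07 at week 5 and 7.02, 6.36, 8.03, 8.77 and 6.47 at week 7, with replicate 4 overlapping (change -1.71, adjusted p = 0.0272), and Slc22a30 and Slc22a7 fell by 1.48 and 1.42 (adjusted p = 0.0312 and 0.0457).

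Among genes that make glucose or burn fuel, some passed as falls in each of 3 lists. In gluconeogenesis and fructose metabolism 6 of 9 fell and 0 rose (median change -1.19), and the falls ran from 0 without any 1 of the 7 arrays named above to 8 without week 7 replicate 4. Pck1, the enzyme that commits carbon to glucose, ran 4.24, 4.24, 4.59, 5.04 and 4.08 at week 5 and 3.15, 3.37, 2.83, 4.26 and 1.87 at week 7, and Miox fell by 1.38 and Slc37a4, the glucose 6-phosphate carrier, by 1.19 (adjusted p = 0.0423, 0.0385 and 0.0423 for the 3 genes). Pck1 and Slc37a4 overlapped between the groups and Miox did not. The Pck1 probe set was dim, beside array medians of 3.98 to 4.09 over all probe sets. Among fatty acid oxidation and peroxisome genes 0 of 22 measured members rose and 4 fell, with Acaa2 down 1.05 (no overlap), Acsm2 0.79 and Cpt2 0.67 on the log2 scale (adjusted p = 0.0226, 0.0453 and 0.0312). The falls of that list ran from 0 without week 5 replicates 2 or 5 or week 7 replicates 1 or 5 to 12 without week 7 replicate 4. Of the mitochondrial respiration genes 0 of 23 measured members rose and 2 fell, and all 23 changes were below 0 (median change -0.39), with Sdhb at -0.78 and Atp5b at -0.68 (adjusted p = 0.0422 and 0.0468). In the respiration list 14 of 23 fell without week 7 replicate 4 and 0 without any 1 of the other 9 arrays. Glycolysis and hypoxia genes counted 2 rises, Slc2a1 (0.60) and Pfkp (0.58), and 0 falls among 16 (adjusted p = 0.0487 and 0.0206), and the rises ran from 0 without any 1 of the 7 arrays named above to 2 without week 7 replicate 4.

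Among xenobiotic enzymes and brush border peptidases 0 of 21 measured members rose and 8 fell (median change -0.56), and the falls ran from 0 without week 5 replicate 5 or week 7 replicate 5 to 12 without week 7 replicate 4. Dpep1 ran 8.31, 7.92, 8.19, 8.05 and 7.86 at week 5 and 6.53, 4.14, 5.58, 7.77 and 5.52 at week 7, without overlap, and the metalloprotease Mep1b fell by 1.5 (adjusted p = 0.0273 and 0.0206). Of the hormone and vitamin D genes 0 of 12 measured members rose and 4 fell, with a range of falls from 0 without week 5 replicates 3, 4 or 5 or week 7 replicate 5 to 6 without week 7 replicate 4. Beside Igfbp1 these included the glucocorticoid carrier Serpina6 (-1.69, adjusted p = 0.0424) and Klotho (Kl), the co-receptor for FGF23, which stood at 9.14, 9.47, 9.33, 9.39 and 9.41 at week 5 and 8.12, 7.85, 8.25, 9.40 and 8.10 at week 7. Replicate 4 of week 7 matched week 5 and the other 4 lay below it (change -1.0, adjusted p = 0.0318).

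**Figure D5:**
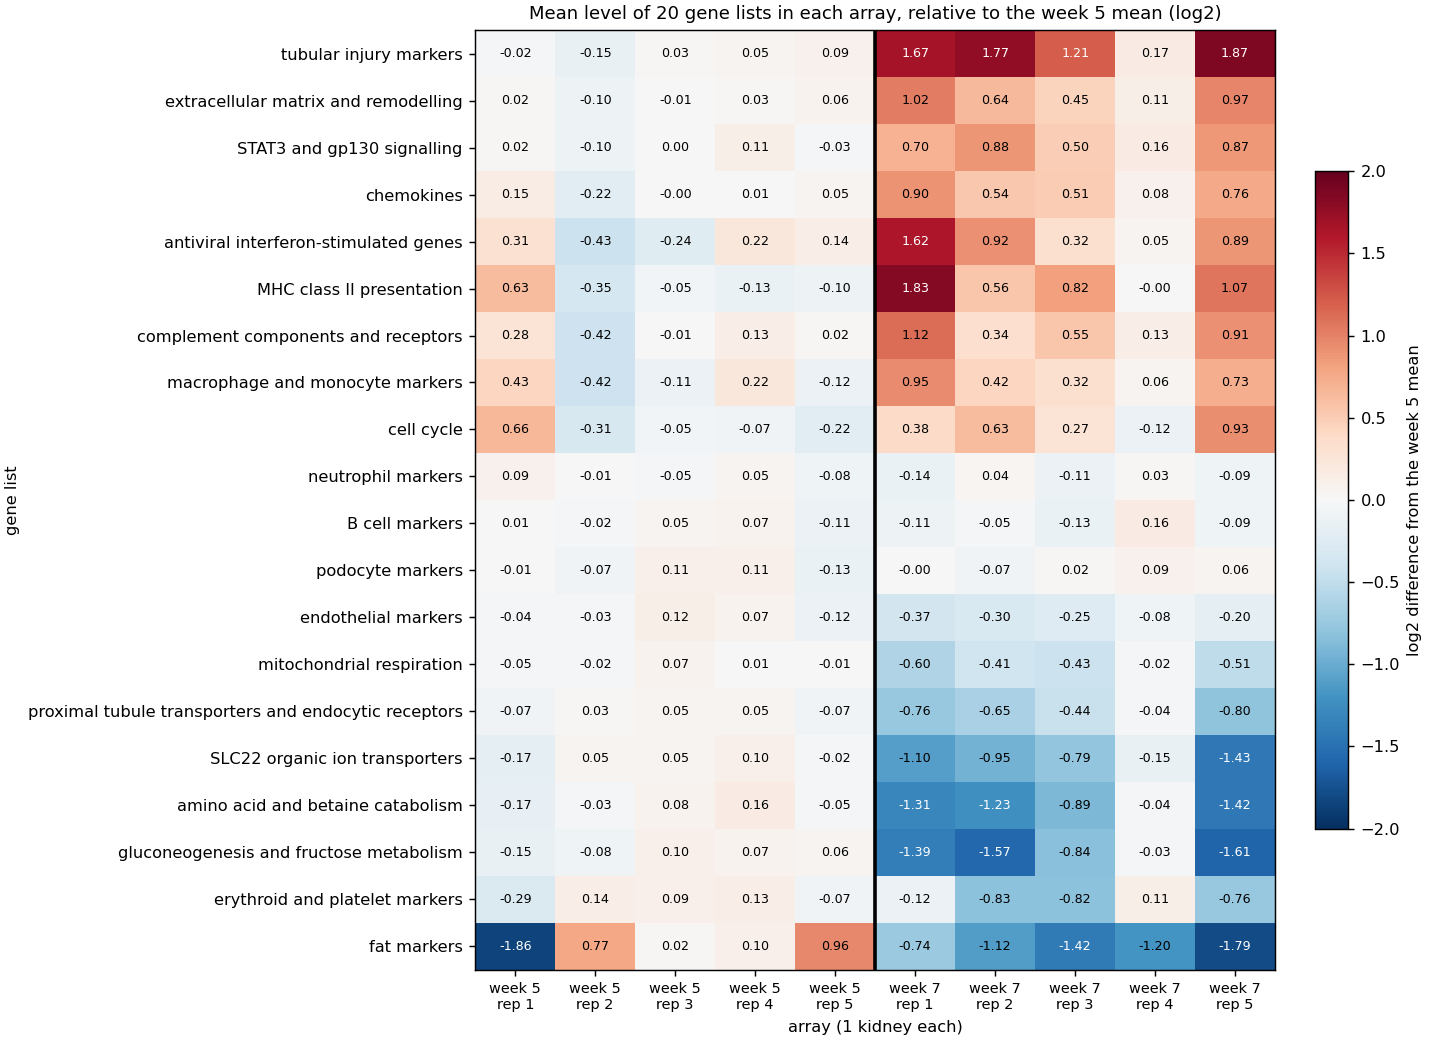
Mean log2 level of 20 gene lists in each of the 10 kidneys, as the difference from the week 5 mean of that list (red above, blue below, values printed in the cells). Week 7 replicates 1, 2, 3 and 5 are red for tubular injury and blue for proximal tubule metabolism, and replicate 4 lies within 0.2 of the week 5 mean in all but the fat list.

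Further along the nephron the picture was mixed. In the loop of Henle and distal convoluted tubule 0 of 18 measured members rose and 2 fell (median change -0.33), and the falls ran from 0 without any 1 of 8 arrays to 7 without week 7 replicate 4. Pvalb, parvalbumin of the distal convoluted tubule, ran 7.83, 8.70, 9.0, 8.74 and 8.55 at week 5 and 4.36, 5.61, 4.88, 8.67 and 5.36 at week 7. Replicate 4 stayed among the week 5 values and the change was -2.79 on the log2 scale (SE 0.59, adjusted p = 0.0262). The other faller of this list was Egf, already counted above in the EGF family. The collecting duct list had 3 falls and 1 rise among 19 members, and the falls ran from 0 without any 1 of 6 arrays to 6 without week 7 replicate 4. Aqp4, a basolateral water channel, fell by 2.05 (adjusted p = 0.0233), the anion exchanger Slc4a1 by 1.26 (adjusted p = 0.0392), and Aqp2, the vasopressin-regulated water channel, rose by 0.67 (adjusted p = 0.0272) on a probe set that was dim for this gene, at 4.34 and 5.0. The dimmer probe set of Slc4a1 differed by 0.21 (adjusted p = 0.4955). Osmolyte and urine concentration genes held 2 rises and 0 falls among 9, the risers being the amino acid transporter Slc38a2 (1.41, adjusted p = 0.00797) and the kinase Sgk1 (0.80, adjusted p = 0.0150), both without overlap, and 4 rose and 1 fell without week 7 replicate 4.

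Of 12 nephron transcription factors 1 rose and 0 fell, whereas 1 rose and 5 fell without week 7 replicate 4 and none rose without any 1 of the other arrays. Pax8, which sets up the nephric lineage, ran 6.57, 6.67, 6.80, 5.28 and 6.78 at week 5 and 7.94, 7.68, 7.49, 6.84 and 8.26 at week 7, without overlap (change 1.23, adjusted p = 0.0391). Hnf4a and Tfcp2l1, bright factors of the proximal tubule and collecting duct, differed by -0.13 and 0.18 (adjusted p = 0.610 and 0.407). Among nucleases and genes for clearance of dead cells 0 of 11 measured members rose and 1 fell, Dnase1 being the faller (2 rose and 2 fell without week 7 replicate 4, and none fell without any 1 of the 7 arrays named above), and Tgm2 differed by 0.18 (adjusted p = 0.621). Among cholesterol and lipid handling genes 1 of 14 measured members rose and 1 fell, namely the exporter Abcg1 (0.76, adjusted p = 0.0248) and lipoprotein lipase Lpl (-1.0, adjusted p = 0.0432). The falls of that list ran from 0 without any 1 of 8 arrays to 4 without week 7 replicate 4.

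Few glomerular and vascular markers passed the test, beside the same shares of 2.45% risen and 2.40% fallen over all genes. Of 15 podocyte markers 1 rose, the slit diaphragm gene Kirrel (0.58, adjusted p = 0.0245), whose dimmer probe set differed by -0.04. Vegfa, which podocytes and tubules both make, was the 1 faller (-0.71, adjusted p = 0.0385), and its dimmer probe set differed by -0.22 (adjusted p = 0.428). Without week 7 replicate 4, 2 podocyte markers rose and 2 fell. No marker passed among 17 endothelial (median change -0.25) and 7 mesangial and renin cell genes (median change -0.09), and Kdr, Tek, Rgs5 and Igfbp5 differed by -0.48, -0.25, -0.09 and -0.96 (adjusted p = 0.10, 0.442, 0.761 and 0.0521). The difference was above 0 in 3 of the 17 and 3 of the 7 members. The endothelial mean level was 6.28, 6.30, 6.44, 6.39 and 6.20 at week 5 and 5.95, 6.03, 6.07, 6.24 and 6.12 at week 7. Week 7 replicates 1, 2, 3 and 5 lay below all week 5 kidneys on that list and replicate 4 within their range. Of 30 cell cycle genes 0 rose and 0 fell (median change 0.43), and the difference was above 0 in 27 of the 30. Pcna differed by 0.45 and Ccnd1, the lowest change of the list, by -0.23 (adjusted p = 0.234 and 0.319). Week 5 replicate 1 had a higher mean over the list than 4 of the week 7 kidneys. Without week 7 replicate 4, 5 cell cycle genes rose and 2 endothelial markers fell.

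Markers of tissues that can cling to a kidney were read in the same way. The fat list had 1 fall among 5 members (median change -1.14), Ucp1 of brown fat, at 3.76, 6.64, 5.85, 5.41 and 6.70 at week 5 and 3.46, 4.71, 3.60, 3.78 and 3.59 at week 7, and its mean level was 4.67, 7.30, 6.55, 6.62 and 7.48 at week 5 and 5.79, 5.41, 5.10, 5.33 and 4.74 at week 7. Week 5 replicate 1 was the lowest of all 10 kidneys on that list, and Fabp4 and Retn differed by -0.74 and -0.79 (adjusted p = 0.192 and 0.160). Without that kidney 5 of the 5 fat markers fell, and 0 without any 1 of 8 other kidneys. The fat list was lower in all 5 week 7 kidneys than in 4 of the 5 week 5 kidneys, and its part in the fall of Lpl was not tested. Red cell and platelet markers gave 0 of 7 in either direction, with Hba-a1 at 8.57, 10.43, 9.78, 9.75 and 9.66 at week 5 and 9.29, 5.62, 5.39, 10.11 and 6.66 at week 7 (adjusted p = 0.127) and Itga2b at -0.14. For Hba-a1, a globin chain, week 7 replicates 2, 3 and 5 lay below all week 5 kidneys and replicates 1 and 4 within their range, and 2 markers of the list fell without week 7 replicate 4. Adrenal (6 genes, Star -0.58 and Cyp21a1 0.23) and skeletal muscle (6 genes, Actn3 -0.03 and Mylpf -0.13) markers had no member past the test.

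Week 9 kidneys, for which the limma fit against week 7 called no probe set, are given side by side as means ± SD (n = 5) without a test. For weeks 5, 7 and 9 in that order, Lcn2 averaged 4.13 ± 0.52, 8.30 ± 2.30 and 7.61 ± 2.15. Havcr1 was 7.16 ± 0.28, 9.70 ± 1.32 and 9.53 ± 1.01 at the same weeks, and Bhmt 7.03 ± 0.37, 3.58 ± 1.80 and 4.72 ± 1.59. The spread at weeks 7 and 9 was wider than at week 5 in all 3 genes. Per1, at 4.44 ± 0.21, 5.98 ± 0.26 and 5.16 ± 0.57, lay at week 9 between its week 5 and week 7 means.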

How the data were processed

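Total RNA of whole kidneys was extracted with Trizol and hybridized to Affymetrix HT-MG-430 PM plates, 1 kidney per array and 1 colour. The log2 values deposited by the authors were normalized by RMA (background correction, quantile normalization and summary per probe set, per the study's methods). The base of the logarithm was taken from the range of the values, 0.585 to 13.9. They were used as deposited. Leaving aside 104 control probe sets, 45037 remained for testing, of which 28898 paired with 1 gene symbol, 551 with several and 15588 with none in the platform annotation. For 17097 genes the brightest probe set over all 33 arrays stood for the gene, and genes not paired in this way are not analysed here.

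Groups came from the time point in the labels. Week 7 and week 5 arrays were compared with limma 3.58.1 (R 4.3.3), a fit of 2 group means on 10 arrays with moderated variances, and Benjamini-Hochberg adjustment over 45037 probe sets. A call needed an adjusted p below 0.05 and a change above 2-fold, as in the study's methods. Arrays hold no count, so their number limits the precision. That the mice were separate comes from the design text.

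The 51 gene lists, with 793 of 890 entries measured, and the comparison itself were chosen with earlier results of these data known. The named genes were the 15 largest rises and 15 largest falls among called genes without overlap between groups, up to 3 members of each list with the largest change past the test (or, where fewer than 2 passed, the 2 brightest), and the genes the study's text names, where measured. Aim2, which the study's text names, had no probe set paired with its symbol alone and is not analysed here. Provisional gene names entered the counts only. Of the 105 other probe sets of 67 named genes, 90 changed in the same direction as the brightest. Alternatives are given in the closing section. The hour of collection and the experiment of each mouse are not given in the sources used here.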

Additional observations from a re-analysis of the deposited data

Results flagged for a closer look

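Within each group of 5 kidneys, a value was singled out where its gap to the nearest other kidney, divided by the range of the group, passed Dixon's 95% critical value. Chance alone singles out about 1 group in 20, and 22 of the 308 groups tested over the 154 named genes were. In 9 of the 22 the kidney was week 7 replicate 4. It was the lowest week 7 kidney for Lcn2 (4.30, others 8.53 to 9.93), Cxcl1 (5.99), Cp (7.65), Ccl28 (7.07), Cebpd (5.21), Il33 (5.32) and F2r (9.01), and the highest for Kl (9.40) and Kdr (8.33).

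The other values lay in several kidneys. At week 5, replicate 2 was lowest for C3ar1 (3.69), Cd83 (4.99) and Tgm2 (7.00) and highest for Slc22a30 (6.30). Replicate 1 was lowest for Igfbp1 (10.05) and Lpl (10.04), replicate 3 for Socs2 (7.98) and replicate 4 for Pax8 (5.28), and replicate 5 was highest for Cxcl1 (5.51). At week 7, replicate 2 was lowest for Fcgr2b (6.96) and Star (3.83) and highest for Ucp1 (4.71), and replicate 1 was lowest for Per1 (5.52).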

How the results depend on the processing

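Each alternative changed 1 choice. With 470 probe sets and 272 genes called, leaving out 1 array gave 128 to 1014 probe sets and 57 to 565 genes. The count of genes rose to 565 without week 7 replicate 4, and fell to 91, 100 and 74 without week 7 replicates 1, 2 and 5 and to 104, 118, 90 and 57 without week 5 replicates 2, 3, 4 and 5. The beta-actin 3′ to 5′ ratio as a covariate gave 277 probe sets (182 higher, 95 lower) and 170 genes. No fold threshold gave 1534 probe sets and a 1.5-fold threshold 1262. The cause of these differences was not tested, apart from the smaller number of arrays and the looser thresholds that the alternatives hold by construction. Among the other steps, all 33 arrays in 1 model gave 7 probe sets in place of 14 for week 2 minus week 1, 6 in place of 1 for week 5 minus week 3 and 6 in place of 0 for week 9 minus week 7.

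All 33 arrays in 1 model, the trend, both kinds of weights, the filter on dim probe sets, a further quantile normalization, centring and the mean over the probe sets of a gene gave 442 to 665 probe sets and 233 to 379 genes. Same-numbered arrays of the groups did not deviate together (correlations from -0.126 to 0.0748), so the numbers do not pair the kidneys, and the fit with the replicate block called 550 probe sets and 313 genes, 270 of them among the 272. None of the 98 named genes past the test changed direction under any of these alternatives. Of the 98, 28 passed the test whichever array was left out. Of these 98, 70 lost the test without week 5 replicate 5, 60 without week 5 replicate 4, 59 without week 5 replicate 2 or week 7 replicate 5, 58 without week 7 replicate 1, 55 without week 5 replicate 3, 50 without week 7 replicate 2 and 44 with the beta-actin covariate, and 19 of the other named genes gained it without week 7 replicate 4.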
